A study of Schmidtea mediterranea with 6 samples.

Results

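In the planarian flatworm Schmidtea mediterranea, 37 of the 5054 poly(A) sites on a custom array carried a signal high in sorted stem cells. In the progenitor gate this signal had already covered at least 0.5 of the log2 drop to its differentiated-cell level. The sites were selected on these same values. A site entered when its brightest probe was well above background on both stem cell arrays and on at least 1 array of differentiated cells, when the mean log2 signal of the stem cells exceeded that of the differentiated cells by 1.5 or more, and when the step from stem cells to progenitor cells made up 0.5 to 1 of that difference. The ratio of the 2 differences is called the X2 position here: it is 0 where X2 equals X1 and 1 where X2 equals Xins. Both differences are in log2, so the position is a share of the log2 drop and not of the amount of signal lost. Of 1028 sites that passed the detection rule, 225 met the 1.5 difference, and 37 of these (16.4%) had an X2 position of 0.5 to 1. Another 182 had an X2 position under 0.5, and at 6 the X2 signal lay below the Xins signal. Sites with a position of 0.5 to 1 are called lowered early below and those under 0.5 lowered late, on the log2 scale only.

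Messenger RNA was measured with 6 one-colour arrays, 2 for each of 3 gates of cells sorted by flow cytometry from the sexual strain. Per the labels, X1 holds stem cells, X2 progenitor cells and Xins differentiated cells, and the probes stand for distal polyadenylation sites. No treatment or genetic change was applied in any gate. Separate animals or separate sorts are not named for the 2 arrays of a gate, so the spread behind every p-value may be technical. The labels give no measure of the purity of a gate. In RNA from a whole gate, fewer cells that express a transcript and less of it per cell cannot be told apart.

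Planarian stem cells, called neoblasts, divide throughout adult life and renew the tissues of the worm. The gates are drawn by DNA content and cell size: X1 cells have more DNA than a resting cell, X2 cells are small and hold a mixture of stem cells and their early descendants, and Xins cells are the ones that remain after irradiation. A poly(A) site is the place where a messenger RNA is cleaved and its tail added. In animals the cleavage machinery recognises a hexamer a short way upstream, most often AATAAA and less often ATTAAA. The files name each probe by a transcript model and give no gene name for any of them, so stem cell, cell cycle and cell type markers could not be looked up, and the gates were not checked against markers. No role is given below to any member for the same reason.

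The last 30 bases of the probe are shown for the 4 members with the largest step from X1 to X2 and for the members with the brightest X1 spots (1 site is in both groups), since the values given below turn on these probes. Capitals mark a poly(A) signal hexamer, AATAAA or ATTAAA, and each line runs 5′ to 3′ along the transcript as the probe table of the array gives it.
dd_smedV4_21323_0_1: actAATAAAtgttgttgatttagttgtttt
OX_Smed_1.0.17643: aaaacgaatctttaaatgAATAAAtgttgt
OX_Smed_1.0.13864: aatgagaaatcgcccgtcaaaatttgattc
mk4.034612.00.01: ataaaaattactttgtgtttctatttaaaa
mk4.006230.01.01: ttatgaaaacacgactttacgtttttgcgt
OX_Smed_1.0.21222: gttttgttgaATTAAAttagcgttaatttc
dd_smedV4_2333_0_1: ccatttaaatactaAATAAAaattataatt
In 3 of these probes AATAAA begins 27, 12 and 16 bases before the 3′ end of the probe, in the order of the lines. The probe of mk4.034612.00.01 also holds AATAAA, which begins 31 bases from its end and so starts 1 base before the stretch printed. Neither hexamer stands in the stretches of OX_Smed_1.0.13864 and mk4.006230.01.01.

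Values are log2 signal relative to the 75th percentile of the array, taken over the 1914 probes that were well above background on all 6 arrays. Probes differ in how brightly they hybridise, so levels are compared between gates within a site and not between sites. The arrays found between 2515 and 3108 of their 10902 probes well above background, and all 6 lay on 1 slide. With 2 arrays per gate the precision of any single site is low. Differences between gates were also fitted for all 2910 tested probes with limma, and adjusted p-values come from that fit with Benjamini-Hochberg adjustment. Because the same differences chose the members, the p-values and counts describe the sites and test nothing about them.

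Among the 37 sites the X1 minus X2 difference ran from 0.945 to 3.44 on the log2 scale, with a median of 1.35, that is, a signal 1.93 to 10.9 times as high in X1. For comparison, the median was 0.69 over the 182 sites that had an X2 position under 0.5 and 0.02 over the 1349 sites tested. The X1 minus Xins difference of the members ran from 1.503 to 5.33 with a median of 2.36, a 5.13-fold difference. X2 still exceeded Xins by a median of 0.98, with a range from 0.07 to 2.33. The X2 position had a median of 0.60: it was under 0.6 at 18 members and 0.7 or more at 5.

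The signal of the members remained measurable after the X1 gate, as the rule in part required. The signal was well above background on both X2 arrays at 35 of the 37 sites and on 1 X2 array at the other two. It was above background on both Xins arrays at 27 sites and on 1 at 10, where the rule asked for at least 1. A position of at most 1 also put the X2 mean at or above the Xins mean. The X2 counts therefore follow in part from the choice of the members. The sites are therefore described as lowered in X2, and at no site was the signal below background on both X2 arrays or both Xins arrays. At the 10 sites with 1 Xins array above background, the X1 minus Xins difference rests partly on a spot near background.

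**Figure D1:**
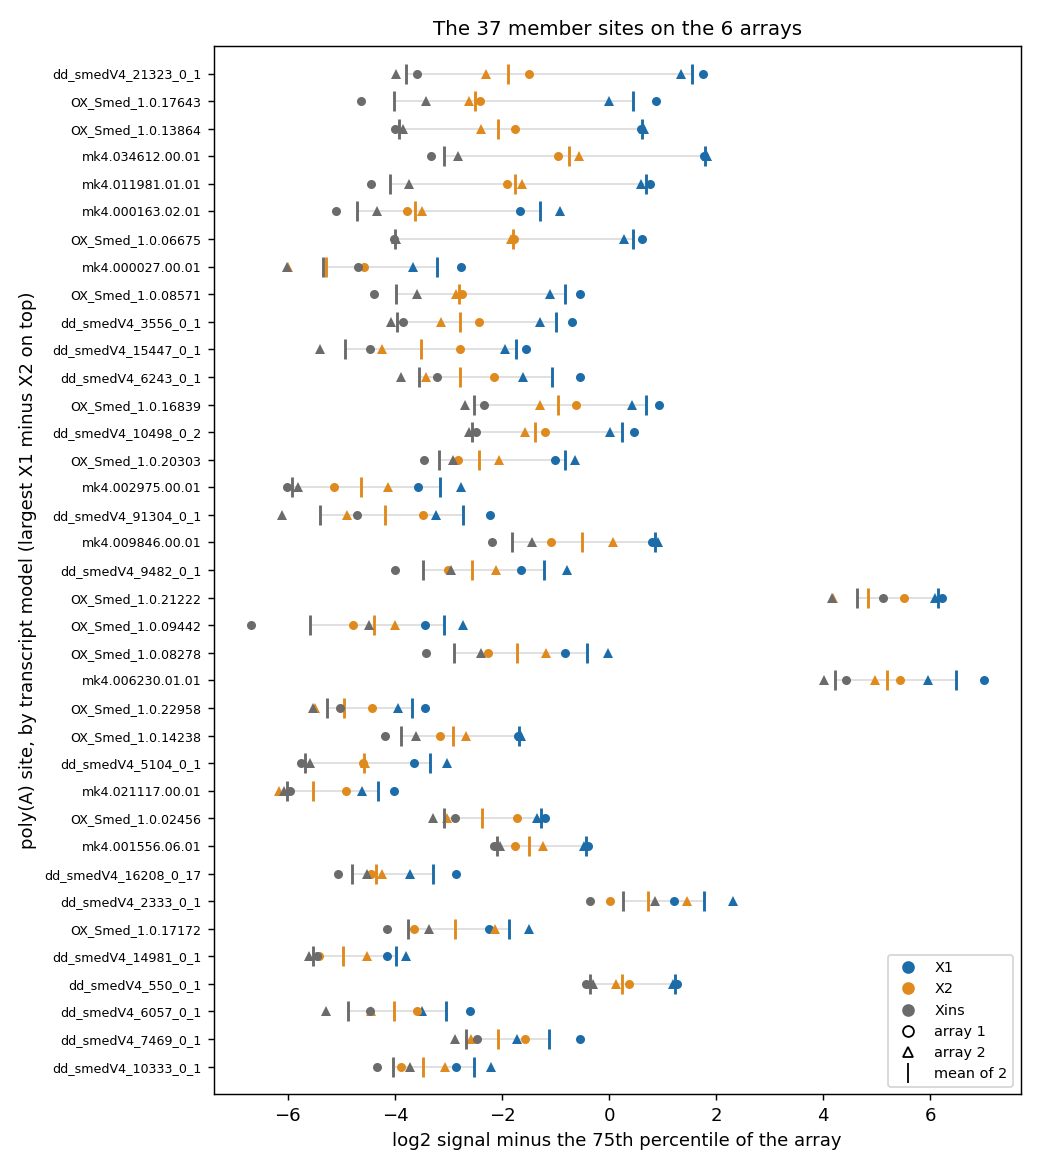
Log2 signal of each of the 37 sites relative to the 75th percentile of the array (horizontal axis), 1 row per site in order of the X1 minus X2 difference. Circles are array 1 and triangles array 2 of each gate, and vertical ticks are the mean of the 2 arrays. The largest step, at the top row, is 3.44, and the X1 and X2 arrays overlap in 3 rows.

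The largest step was at dd_smedV4_21323_0_1 (Contig3562, plus strand, 40966 to 40977), whose log2 signal was 1.75 and 1.35 on the X1 arrays, -1.49 and -2.29 on the X2 arrays and -3.58 and -3.99 on the Xins arrays. The 3 gates did not overlap, and X2 lay nearer to Xins than to X1. X1 exceeded X2 by 3.44 ± 0.44 (SE from limma, n = 2 arrays per gate), a 10.9-fold difference, with adjusted p = 0.00978. X1 exceeded Xins by 5.33, or 40.3-fold, the widest difference among the members. Its X2 position was 0.645.

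OX_Smed_1.0.17643 (Contig7138, minus strand, 11162 to 11216) read 0.89 and -0.0024 in X1, -2.41 and -2.61 in X2, and -4.64 and -3.42 in Xins. The gates were again fully separated, although the Xins arrays spread more than the others (SD 0.863). The X1 minus X2 difference was 2.95 ± 0.53 (SE from limma, n = 2 arrays per gate, adjusted p = 0.0216), and the X2 position was 0.661. A second probe sequence at the site, under the model OX_Smed_1.0.21868, was above background on 0 arrays and measured nothing.

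OX_Smed_1.0.13864 (Contig654, plus strand, 97693) read 0.59 and 0.66 in X1, -1.76 and -2.39 in X2, and -3.99 and -3.84 in Xins. The X1 arrays were close to each other (SD 0.0473), and X2 lay between the other two gates on both arrays. The X1 minus X2 difference was 2.69 ± 0.39 (SE from limma, n = 2 arrays per gate, adjusted p = 0.0135), and X2 also exceeded Xins by 1.85 with adjusted p = 0.0167 from limma.

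mk4.034612.00.01 (Contig34612, plus strand, 458 to 464) read 1.77 and 1.83 in X1, -0.95 and -0.56 in X2, and -3.33 and -2.82 in Xins. On the log2 scale its fall was spread nearly evenly over the steps, with an X2 position of 0.524. The signal in X1 was 5.88 times that in X2 and 29.4 times that in Xins, so most of the signal was gone by X2. X1 exceeded X2 by 2.56 ± 0.39 (SE from limma, n = 2 arrays per gate, adjusted p = 0.0141) and X2 exceeded Xins by 2.32 with adjusted p = 0.00908 from limma.

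In the fit over all probes, X2 was called lower than X1 at an adjusted p under 0.05 at 8 of the 37 members, where 1.34% of all tested probes were called. These 8 are the 4 sites above with mk4.011981.01.01, mk4.000163.02.01, OX_Smed_1.0.06675 and OX_Smed_1.0.08571. Of these, mk4.011981.01.01, mk4.000163.02.01 and OX_Smed_1.0.08571 were picked out after their values were seen. Across the 8, the X1 minus X2 difference was 1.98 to 3.44 and the X1 minus Xins difference 3.16 to 5.33. Over the other 29 members adjusted p went up to 0.394 from limma. That fit leaves the replicate number out. With the replicate number as a block, limma called 33 members, where 13.2% of all tested probes were called. The same 8 sites were also called lower in Xins than in X1.

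mk4.011981.01.01 (Contig11981, plus strand, 18488 to 18510) read 0.76 and 0.60 in X1, -1.90 and -1.62 in X2, and -4.45 and -3.73 in Xins. The gates did not overlap, and the steps from X1 to X2 and from X2 to Xins were close in size, at 2.44 and 2.33. mk4.000163.02.01 (Contig163, plus strand, 71757 to 71794) read -1.67 and -0.91 in X1, -3.78 and -3.49 in X2, and -5.09 and -4.34 in Xins. Here the first step, 2.35, was larger than the second, 1.08, and the gates were again apart. OX_Smed_1.0.08571 (Contig15165, minus strand, 6275 to 6285) read -0.55 and -1.10 in X1, -2.75 and -2.86 in X2, and -4.39 and -3.58 in Xins. It too was separated between all gates, with steps of 1.98 and 1.18.

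Counted over both arrays of each gate, X1 lay wholly above X2 at 34 of the 37 sites, where 23.8% of tested probes did so, and wholly above Xins at 37 (40.7% of tested probes). X2 lay wholly above Xins at 24, against 37.2%. The 3 sites whose X1 and X2 arrays overlapped were dd_smedV4_2333_0_1, OX_Smed_1.0.17172 and dd_smedV4_7469_0_1. Xins was called lower than X1 at 34 members (24.5% of tested probes), the exceptions being OX_Smed_1.0.21222, dd_smedV4_2333_0_1 and dd_smedV4_7469_0_1, with adjusted p of 0.0589, 0.103 and 0.0535 from limma. With the replicate block it was called lower at 37 (38% of tested probes). Xins was called lower than X2 at 6 members (13.5% of tested probes), and with the replicate block at 23 (34.1% of tested probes). The 6 were dd_smedV4_21323_0_1, OX_Smed_1.0.13864, mk4.034612.00.01, mk4.011981.01.01, OX_Smed_1.0.06675 and OX_Smed_1.0.16839. These counts follow from the choice of the members and are not read further.

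Size of the step varied widely. X1 exceeded X2 by 4-fold or more at 8 members, by 2-fold to 4-fold at 24 and by less than 2-fold at 5. The last 5 were dd_smedV4_14981_0_1, dd_smedV4_550_0_1, dd_smedV4_6057_0_1, dd_smedV4_7469_0_1 and dd_smedV4_10333_0_1, with X1 minus X2 of 0.945 to 0.997 and X1 minus Xins of at most 1.83. The X1 minus X2 difference taken from arrays 1 alone and from arrays 2 alone differed by a median of 0.435, with a range from 0.0388 to 1.19. The X2 position reached 0.5 on both arrays at 24 members and on 1 at the other 13. Because the rule set the mean position at 0.5 or more, at least 1 was bound to reach it.

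The members were spread over the whole range of X1 minus Xins. They made up 13 of 94 sites with a difference of 1.5 to 2, 14 of 103 with 2 to 3, and 10 of 28 with 3 or more. Both numbers use the X1 arrays, so they share the error of those arrays, and no test was made of this. The plot of both differences shows the same sites.

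**Figure D2:**
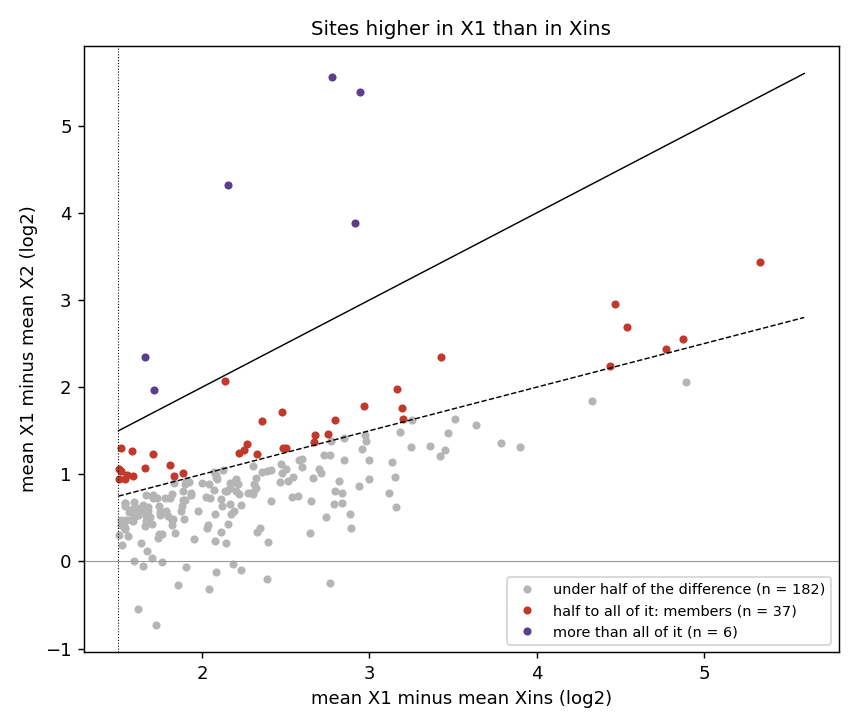
Mean X1 minus mean Xins (horizontal, log2) against mean X1 minus mean X2 (vertical, log2) for the 225 sites higher in X1, each point 1 site. The dashed line is an X2 position of 0.5, the solid line an X2 position of 1 and the dotted line the minimum difference of 1.5. The 37 members lie between the solid and the dashed line, and many of them close to the dashed line.

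The brightest probes of the set in X1 were read as well, because bright spots carry less background error. mk4.006230.01.01 (Contig6230, minus strand, 22202 to 22249) read 7.0 and 5.96 in X1, 5.43 and 4.97 in X2, and 4.43 and 4.02 in Xins. The gates were separated, but the X1 arrays spread widely (SD 0.734), and the difference of 1.28 ± 0.47 (SE from limma, n = 2 arrays per gate) had adjusted p = 0.17. With the replicate block, limma gave adjusted p = 0.0216. Its X1 minus Xins difference was 2.25 with adjusted p = 0.00806 from limma.

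OX_Smed_1.0.21222 (Contig300, minus strand, 36453 to 36502) read 6.22 and 6.08 in X1, 5.51 and 4.18 in X2, and 5.11 and 4.16 in Xins. X1 lay above both other gates, while X2 and Xins overlapped: on arrays 2 they were nearly equal, and on arrays 1 X2 lay between. X1 exceeded X2 by 1.31 ± 0.56 (SE from limma, n = 2 arrays per gate, adjusted p = 0.219), and the X2 position was 0.643 on arrays 1 and 0.988 on arrays 2. With the replicate block, limma gave adjusted p = 0.0425.

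dd_smedV4_2333_0_1 (Contig60, plus strand, 79081 to 79114) read 1.22 and 2.32 in X1, 0.01 and 1.46 in X2, and -0.35 and 0.86 in Xins. In every gate array 2 was the higher, and X2 array 2 exceeded X1 array 1. Within a replicate number the order was X1, X2, Xins both times. The X1 minus X2 difference of 1.03 ± 0.68 (SE from limma, n = 2 arrays per gate) had adjusted p = 0.394, the highest among the members in that fit, and adjusted p = 0.0225 from limma with the replicate block.

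The threshold on the X2 position cut through a continuous range. Just inside 0.5 were OX_Smed_1.0.06675 (Contig6868, plus strand, 15680 to 15722) at 0.504 and OX_Smed_1.0.16839 (Contig2285, minus strand, 26193 to 26198) at 0.510. Just outside were dd_smedV4_10407_0_26 (Contig199, plus strand, 124201) at 0.499 and dd_smedV4_8206_0_1 (Contig776, plus strand, 80030) at 0.498. OX_Smed_1.0.06675 read 0.61 and 0.27 in X1, -1.77 and -1.82 in X2, and -4.01 and -3.99 in Xins, so its X2 arrays sat midway between gates that each varied little. OX_Smed_1.0.16839 read 0.93 and 0.44 in X1, -0.61 and -1.28 in X2, and -2.33 and -2.70 in Xins, also without overlap. The X1 minus X2 differences of the 2 sites outside, 1.03 and 1.62, lie within the range of the members.

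At the other end, mk4.000027.00.01 (Contig27, plus strand, 70789 to 70875) was just inside an X2 position of 1. It read -2.77 and -3.66 in X1, -4.57 and -6.00 in X2, and -4.70 and -6.01 in Xins, and X2 and Xins were alike on each array, at an X2 position of 0.969. Only 1 X2 array and 1 Xins array were above background there, so the size of its step, 2.07, rests partly on spots near background. Just outside were mk4.013296.00.01 (Contig13296, plus strand, 2683 to 2762) at 1.14 and dd_smedV4_826_0_1 (Contig93, minus strand, 212325 to 212389) at 1.33. The latter was not well above background on any X2 array, so its X2 position is not a measured value.

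The members just inside the 1.5 difference between X1 and Xins were dd_smedV4_10333_0_1 (Contig101, minus strand, 181929 to 181935) and dd_smedV4_16208_0_17 (Contig664, minus strand, 154242 to 154247), at 1.503 and 1.504. The first read -2.86 and -2.20 in X1, -3.89 and -3.06 in X2, and -4.34 and -3.72 in Xins. The second read -2.87 and -3.71 in X1, -4.45 and -4.24 in X2, and -5.06 and -4.53 in Xins. In both, X1 was apart from X2, and in the first X2 and Xins overlapped. Just outside were OX_Smed_1.0.23376 (Contig398, plus strand, 8262 to 8313) at 1.48 and dd_smedV4_4785_0_1 (Contig952, plus strand, 14616 to 14712) at 1.47, which had X2 positions of 0.785 and 0.952.

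Other probes at the members' sites gave like X1 minus X2 differences on the same arrays. At 13 sites there were 23 further tested probes with a sequence identical to the brightest, listed under other transcript models. X1 exceeded X2 in 23 of the 23, and their X1 minus X2 differences departed from that of the brightest probe by a median of 0.0587 and at most 0.278. The X2 position was 0.5 to 1 in 19 of the 23. Their X1 minus Xins differences departed more, by a median of 0.136 and at most 0.817. At 5 sites there were 7 tested probes of a different, overlapping sequence. X1 exceeded X2 in 7 of the 7, the X2 position was 0.5 to 1 in 6, and the departure was 0.0674 at the median and 0.230 at most. These probes read the same RNA on the same arrays and are not independent of the choice.

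Among tested probes of different sequence, the widest departures in X1 minus X2 were at dd_smedV4_9482_0_1 and dd_smedV4_550_0_1. dd_smedV4_9482_0_1 (Contig3569, minus strand, 10689 to 10740) read -1.64 and -0.79 in X1, -3.01 and -2.11 in X2, and -4.00 and -2.95 in Xins, an X1 minus X2 difference of 1.35. Probes offset by 7 bases under the models OX_Smed_1.0.15097 and mk4.003569.01.01 gave 1.33 and 1.58. dd_smedV4_550_0_1 (Contig601, plus strand, 94040 to 94067) read 1.27 and 1.19 in X1, 0.36 and 0.13 in X2, and -0.43 and -0.29 in Xins, a difference of 0.98. A probe offset by 12 bases under OX_Smed_1.0.13284 gave 0.885. All these departures were smaller than the SE of the difference at the site. That SE measures the spread between arrays, which the probes of a site share, so it does not gauge how well probes agree.

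The rule was then applied to 1 array per gate, leaving the other array of each gate unused by the choice. Chosen on arrays 1, 55 sites met the rule, with a median X1 minus X2 of 1.37. On arrays 2 the median of the same 55 sites was 0.98, and X1 exceeded X2 at 55 of 55. At 29 of them (52.7%) the X2 position was again 0.5 or more, and 19 met the whole rule again. The 163 sites chosen on arrays 1 with an X2 position under 0.5 had a median of 0.62 on arrays 2, with X1 above X2 at 139 (85.3%) and an X2 position of 0.5 or more at 21 (12.9%).

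Chosen on arrays 2, 39 sites met the rule, and their median X1 minus X2 went from 1.37 there to 1.03 on arrays 1. X1 exceeded X2 at 36 of the 39 (92.3%), the X2 position was 0.5 or more at 17 (43.6%), and 14 met the whole rule again. The 128 sites with a position under 0.5 had a median of 0.77 on arrays 1, with X1 above X2 at 117 (91.4%) and a position of 0.5 or more at 16 (12.5%). Over all detected sites the median X1 minus X2 was 0.01 on arrays 2 (1168 sites) and -0.01 on arrays 1 (946 sites), with X1 above X2 at 50.5% and 49.5%.

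On unused arrays the sites lowered early thus kept a larger median step from X1 to X2 than the sites lowered late. The gap was 0.363 on arrays 2 and 0.267 on arrays 1. For X1 minus Xins the gap between the medians, early less late, was -0.163 on arrays 2 and 0.249 on arrays 1. On arrays 1 the larger step thus came with a larger whole drop from X1 to Xins. Both medians of a pair come from the same arrays, so a shift in the scaling of an array moves them alike. The X2 position of the early sites went from 0.588 to 0.513 in the first direction and from 0.612 to 0.448 in the second, so about as many sites fell under 0.5 as stayed above it. Whether the arrays of a gate are separate biological samples is not stated, so these values show repeat measurement at least and no more. No test was made over sites, which are not replicates.

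**Figure D3:**
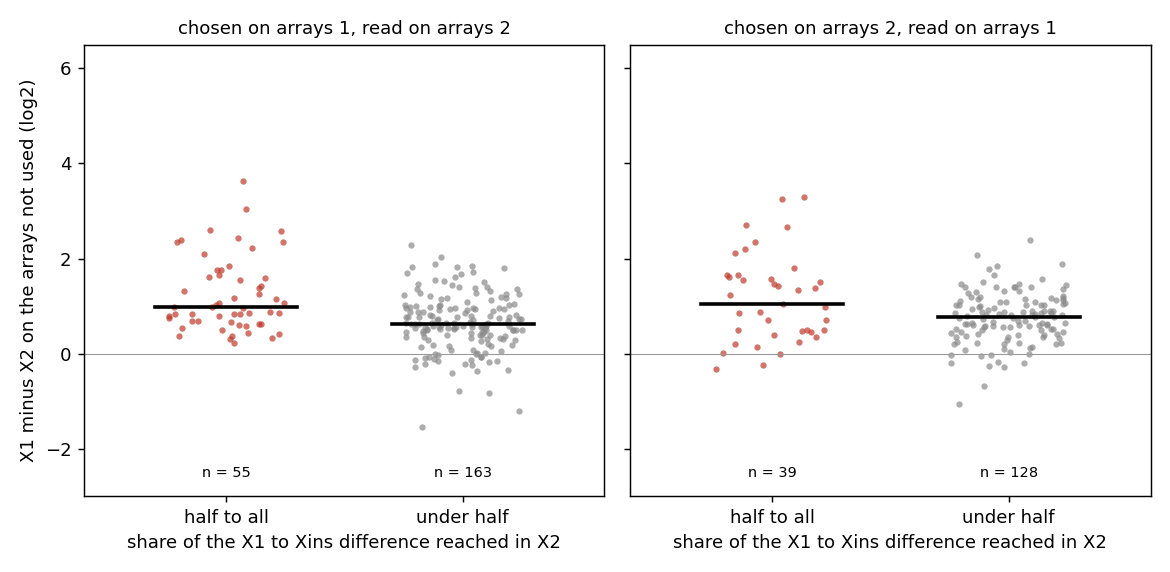
X1 minus X2 (vertical, log2) on the arrays that the choice did not use, each point 1 site, with sites chosen on arrays 1 in the left panel and on arrays 2 in the right. The bars are medians, 0.98 and 0.62 on the left and 1.03 and 0.77 on the right.

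Membership depended on the scaling between arrays and on single arrays. Scaled on the spike-in controls, which moved X2 relative to X1 up by a median of 0.59 over all tested probes, 6 sites met the rule and 4 of them were members. The members' median X1 minus X2 was then 0.75, and limma called 0 of the 37, with 6 at an unadjusted p under 0.05. With the percentile over all probes, 60 sites met the rule and 36 were members. In the authors' deposited values, 36 sites met it, of which 24 were members. With normexp and quantile normalization 15 sites met it, of which 10 were members.

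Leaving out 1 array gave 35 to 77 sites, with 20 to 29 of the 37 members among them. There were 50 sites with 20 members when X2 array 1 was left out and 77 with 23 when X2 array 2 was. Leaving out X1 array 1 gave 69 sites with 26 members, and leaving out X1 array 2 gave 64 with 29. The limma calls of X2 below X1 went from 8 to 1 and 2 without X1 array 1 or 2, and to 2 and 0 without X2 array 1 or 2 (20 at an unadjusted p under 0.05 in the last case). Blocking on the slide row gave 14 calls and on the replicate number 33, and dropping the filter on dim probes gave 2. Calls of Xins below X1 went from 34 to 19 without X1 array 1. Calls of Xins below X2 went from 6 to 3 and 0 without X2 array 1 or 2 and to 3 without Xins array 2. The position is a ratio of differences with 2 arrays behind each mean, and its median was 0.374 over the 225 sites high in X1. Under the spike-in scaling it was 0.0883 over the 236 sites then high in X1.

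The members that stayed in the set were few. Over 12 settings that repeated the choice, dd_smedV4_21323_0_1 and OX_Smed_1.0.17643 met the rule in all 12, and 8 members met it whichever array was left out. The 8 were those 2 with dd_smedV4_10498_0_2, mk4.000163.02.01, OX_Smed_1.0.08571, OX_Smed_1.0.13864, OX_Smed_1.0.20303 and dd_smedV4_550_0_1. Of these, dd_smedV4_10498_0_2 and OX_Smed_1.0.20303 lie outside the naming rule and were picked out after their values were seen. The other 29 dropped out without at least 1 of the arrays.

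dd_smedV4_10498_0_2 (Contig234, plus strand, 87895 to 87910) read 0.46 and 0.02 in X1, -1.20 and -1.58 in X2, and -2.49 and -2.62 in Xins. The gates did not overlap, and the X1 minus X2 difference of 1.62 had adjusted p = 0.0547 from limma. OX_Smed_1.0.20303 (Contig1762, plus strand, 10860 to 10865) read -1.01 and -0.64 in X1, -2.82 and -2.06 in X2, and -3.46 and -2.91 in Xins. There too X1 was apart from X2 and X2 from Xins, with an X1 minus X2 difference of 1.61 and adjusted p = 0.0846 from limma.

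**Figure D4:**
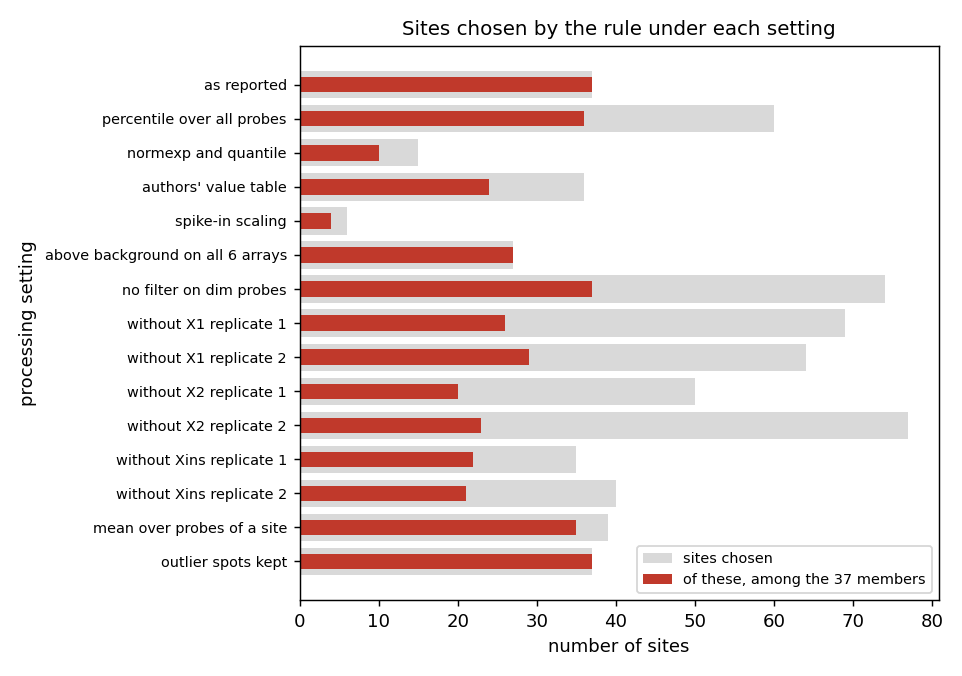
Number of sites that met the rule under each processing setting (horizontal axis, grey bars) and how many of them were among the 37 members (red bars). The bars run from 6 sites under the spike-in scaling to 77 without the second X2 array.

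The members were spread over the assembly. They lay on 36 contigs, 20 on the plus and 17 on the minus strand, and had 37 distinct probe sequences, none of which was listed at another site. Contig434 held 2 members, dd_smedV4_6243_0_1 and OX_Smed_1.0.09442, on opposite strands and 85125 bases apart. Within 50 kb of a member there were tested sites in 3 cases only. Of these 3 neighbours, 1 was high in X1 with an X2 position under 0.5, none was a member, and the other two did not meet the X1 minus Xins rule.

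The cleavage region of a member, from the first to the last coordinate of its site, had a median width of 15 bases, against 11 at the sites lowered late and 13 at all tested sites. Over all 5054 sites the median was 2 bases. The probe is 45 bases plus this width where the width is at most 15, and 60 bases otherwise. Where a probe begins and ends relative to the coordinates of its site was not checked. The members had a median of 1 transcript model per site, against 2 in the other sets.

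For the poly(A) signal, AATAAA and ATTAAA were searched on the transcript strand, with the first base 10 to 35 bases before the 3′ end of the probe. AATAAA was found in 18 of the 37 members (48.6%), against 42.3% of the 182 sites lowered late, 34.5% of the 1349 tested sites and 42.8% of all sites. ATTAAA without AATAAA stood in 1 member, and 18 members (48.6%) had neither in the window, against 60.2% of tested sites. The reverse complement of AATAAA was in 4 members (10.8%) and in 8.38% of tested sites. Where AATAAA was found, it began a median of 25.5 bases from the end in the members and 24 in the tested sites.

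Restricted to sites at most 15 bases wide, where the probe is 45 bases plus the width, AATAAA was found in 13 of 20 members (65.0%). The share was 44.7% of 114 sites lowered late, 39.2% of 735 tested sites and 45.7% of all 4099 sites of that width. The numbers are small and were not tested, and a match in this window is a description of the letters and not of a working signal.

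Motifs bound by RNA-regulating proteins in other animals were counted over the whole probe. TGTANATA, the core recognised by Pumilio proteins, was in 4 of 37 members (10.8%), namely OX_Smed_1.0.20303, OX_Smed_1.0.17172, dd_smedV4_6243_0_1 and dd_smedV4_91304_0_1. It was in 4.4% of sites lowered late, 2.52% of tested sites and 2.33% of all sites, and its reverse complement was in 0 members. The number of matches is small, several motifs were counted, and the shares were not tested. ATTTA, the core of AU-rich elements, was in 15 members (40.5%), 23.6% of sites lowered late, 28.2% of tested sites and 34.5% of all sites. Its reverse complement was in 43.2% of members and 42.3% of tested sites. GC content had a median of 24.4% in the members, 25.9% in the tested sites and 21.6% in all sites. Whether it bears on the motif counts was not tested.

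The 4 members with TGTANATA were singled out after the match was seen. OX_Smed_1.0.20303 is given above. OX_Smed_1.0.17172 (Contig2833, plus strand, 41582 to 41598) read -2.25 and -1.50 in X1, -3.64 and -2.13 in X2, and -4.16 and -3.36 in Xins, with X2 array 2 above X1 array 1. dd_smedV4_6243_0_1 (Contig434, plus strand, 17327 to 17334) read -0.53 and -1.61 in X1, -2.15 and -3.42 in X2, and -3.21 and -3.89 in Xins, with X1 apart from X2 and X2 overlapping Xins. dd_smedV4_91304_0_1 (Contig904, minus strand, 106117) read -2.22 and -3.23 in X1, -3.47 and -4.90 in X2, and -4.70 and -6.11 in Xins, where 1 Xins array was above background and X2 again overlapped Xins.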

How the data were processed

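Signals come from 6 Agilent one-colour arrays, 2 per gate, grouped by the labels. Per the file headers, the deposited intensity values were made with Feature Extraction 11.5.1.1, which subtracted background, detrended each array and set a surrogate for low signals. The authors also deposited a value table, read as natural log because its slopes against the log2 scanner signal were 0.694 to 0.695 (X2 array 1 0.719); the submitters' processing notes name limma, with no role, and its normalization is unstated. It served as an alternative. Replicate numbers are those of the labels.

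Control spots and 11 outlier spots were left out, probes were averaged in log2, and the 75th percentile over 1914 probes was subtracted. Probes above background on both arrays of a gate were tested in 1 model with limma 3.58.1 in R 4.3.3 (Benjamini-Hochberg, threshold 0.05, 7.08 degrees of freedom). The fit was tested on simulated data with noise independent between arrays, which does not cover the shared deviation of arrays with the same number. A site is the contig, strand, start and end in the probe name, and the sources used here name no genome build. The members, the lists and the alternatives were chosen with earlier results of these data known. Named sites are the members with the largest steps, the brightest X1 spots, those beside each threshold and those whose sequences disagree; sites picked after their values were seen are said to be. Marker lists were not run, since no probe has a gene name.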

Additional observations from a re-analysis of the deposited data

How the results depend on the processing

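The counts below changed with the scaling, the filter, the thresholds, the block and single arrays. The share of the X1-high sites that were lowered early, 16.4%, became 25% with the percentile over all probes, 23.4% with normexp and quantile, 27.3% with the authors' value table, 2.54% with the spike-in scaling and 16.9% to 34.1% with 1 array left out. The set of 37 sites became 60, 15, 36 and 6 under those 4 scalings, 74 without a filter on dim probes, 35 to 77 with 1 array left out, 74 and 24 with a minimum difference of 1 and 2, and 92 and 19 with a minimum position of 0.4 and 0.6. The median X2 position of 0.374 became 0.431, 0.404, 0.409 and 0.0883 under the 4 scalings, 0.410 without the filter and 0.320 to 0.449 with 1 array left out. Relative to the reported scaling, the median X2 minus X1 over all tested probes moved by -0.14 with the percentile over all probes, 0.12 in the authors' table and 0.59 with spike-ins, and Xins minus X2 by 0.34 and -0.64 in the authors' table and with spike-ins.

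Members called lower in X2 than X1 by limma, 8, became 5 in the authors' table, 0 with spike-ins (6 at an unadjusted p under 0.05), 2 without the filter, 14 with slide row as a block, and 0 to 8 with 1 array left out, the 0 being without X2 array 2, where 20 had an unadjusted p under 0.05. Those called lower in Xins than X1, 34, became 21, 20 and 22 in the authors' table, with spike-ins and without the filter, and 19 (without X1 array 1) to 35 with 1 array left out. Those called lower in Xins than X2, 6, became 3, 2 and 0 (7 at an unadjusted p under 0.05), and 0 to 5 with 1 array left out (11 unadjusted where the count is 0, without X2 array 2). A gate left with 1 array was assumed to vary like the others. Why calls were lost with fewer arrays, without the filter or under the scalings was not tested. Without the filter the members' X1 minus X2 differences were unchanged (median 1.35). There limma gave 15 of them an unadjusted p under 0.05, against 26 as reported.

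With the replicate block, 33 members were called lower in X2 than X1 (13.2% of all tested probes) and 23 lower in Xins than X2. Arrays of the same number deviated together (correlations of 0.604, 0.487 and 0.440 over 2910 probes between X1 and X2, X1 and Xins, X2 and Xins), but with 2 numbers the labels give only a shared number, which is no stated pairing. Of 237 values of X1 minus X2 for the 14 named members under the alternatives, 202 kept their direction and side of the threshold, 25 lost the call, 10 gained it and 0 turned. The 14 were chosen for X1 above X2 on these same arrays, so their direction was largely set by the choice. Most of them were not called in the reported fit, and a value that stayed uncalled counts among the 202. Keeping the outlier spots, added after the data were seen, left 37 sites.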

Other observations

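None of the 3 sites tested near a member met the rule, although 2 of them were also higher in X1 than in X2. Beside OX_Smed_1.0.06675, a site 12575 bases away on the same strand had X1 minus X2 of 0.65 and X1 minus Xins of 2.23. Beside OX_Smed_1.0.16839, a site 13800 bases away on the other strand had 0.83 and 1.42. Beside dd_smedV4_10333_0_1, a site 10165 bases away on the same strand was lower in X1, at -0.72 and -0.99. In the authors' deposited value table X1 exceeded X2 at 37 of the 37 members, with an X2 position of 0.5 to 1 in 34 and above 1 in 3. Those values come from the same arrays that chose the members, so these counts describe the members and test nothing.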
